A study of Homo sapiens with 6 samples.

Results

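The 39 genes described here encode the DNA replication machinery and the regulators of the step from G1 to S phase. They were chosen by symbol, from lists of origin licensing, replication fork, nucleotide supply and E2F genes, out of 23059 genes with counts. All 39 were listed in the deposited tables, and all 39 were among the 15173 genes that passed the filter on low counts. The cells were HCC-LM3, a highly metastatic line derived from human liver cancer, and the study compared 3 samples given apigenin with 3 given DMSO as the control, to learn how apigenin, a plant flavone, alters transcription. The labels name the samples biological replicates, and the study title is about microvesicles and the blood vessels of tumours. Neither the dose nor the time of exposure is given in the sources used here. Both groups are the same unmodified line, and results from 1 line describe that line.

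Replication starts at origins that are licensed in G1, when the origin recognition complex, CDC6 and CDT1 load the ring-shaped MCM2 to MCM7 helicase onto DNA. At the start of S phase CDC45 and the GINS complex join the helicase and activate it. Primase with DNA polymerase alpha then starts each strand, the RFC clamp loader places the PCNA clamp, and FEN1 trims the flaps between lagging-strand fragments. The G1/S transcription programme is driven by E2F factors, which are held back by RB-family proteins until cyclin E and CDK2 are active, and many genes of this set are textbook E2F targets. In liver cancer this programme is known as part of the proliferation signature.

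The libraries held 33882145 to 37983636 counts, and the lowest count of any of the 39 genes in a library was 521. Levels of one gene are compared as CPM (TMM-scaled counts relative to the library total), and levels of different genes as FPKM, which also divide by gene length. Log2 fold changes are apigenin over DMSO with their SE from edgeR's quasi-likelihood test, and a gene is called at a Benjamini-Hochberg adjusted p under 0.05 over all tested genes. Positions are those of RefSeq on GRCh38. Of the 39 genes 20 overlap another RefSeq gene, and no source used here says whether counting was by strand, so their reads may be shared. For 8 the neighbour is protein-coding (ORC1, MCM7, GINS2, PRIM2, RFC5, TYMS, CCNE2 and UHRF1), and CLSPN, PCNA and GINS4 overlap genes annotated as antisense RNAs. The cell type labels were checked against markers. ALB was at 119 to 125 CPM in the DMSO libraries and 51.5 to 53.9 CPM in the apigenin libraries, and APOA1 was at 0.236 to 1.94, HNF4A at 69.0 to 79.0 and KRT8 at 2229 to 2592 CPM over all 6. CD3E, THY1 and CDH5, which mark T cells, fibroblasts and endothelium, were at 0 to 0.1345 CPM, while LUM (21.8 to 30.1 CPM), PECAM1 (42.6 to 53.2 CPM) and CD68 (85.1 to 93.8 CPM) of the same marker lists were present, and the part of other cells in the results was not tested. The apigenin libraries differed from each other more than the DMSO libraries did. The chi-square over its degrees of freedom was 8.81 to 27.5 between apigenin libraries and 4.35 to 5.15 between DMSO libraries. Counts in the apigenin libraries also leaned with gene length. Relative to the DMSO mean, log2 CPM changed by -0.063, -0.017 and -0.131 per doubling of length in apigenin libraries 1, 2 and 3, against 0.002, -0.005 and 0.003 in the DMSO libraries, so each count below is also given with that trend removed where it alters a call.

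With apigenin, 1 of the 39 genes was called higher, the flap endonuclease FEN1, none was called lower, and 38 were not called. Called genes were 2.56% of the set, beside 6.99% of all tested genes called in either direction, 2.76% called higher and 4.22% called lower. At an unadjusted p under 0.05 stood 9 of the 39 genes, 23.1% of the set, beside 24.4% of all tested genes. The median log2 fold change of the set was 0.016, beside 0.004 over all tested genes, and the median size of the log2 fold change was 0.073, beside 0.151. All tested genes include many at lower levels, as the set stood at a median FPKM percentile of 79.4. The sizes were not compared with those of genes at like levels. Of the 39 fold changes 26 were positive and 13 negative, between -0.171 for CDC45 and 0.39 for FEN1. The 95% intervals of all 39 fold changes lay between 0.784-fold and 1.45-fold, and without FEN1 none reached above 1.35-fold. The summed FPKM of the set was 1333, 1332 and 1316 in the DMSO libraries and 1382, 1360 and 1432 in the apigenin libraries. The same sum over all tested genes was 389800, 390500 and 391300 in the DMSO libraries and 405600, 390600 and 425100 in the apigenin libraries, so apigenin library 3 was the highest in both sums. In RNA of whole cell samples, a change in the number of cells in S phase and a change in the RNA of these genes per cell cannot be told apart.

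**Figure D1:**
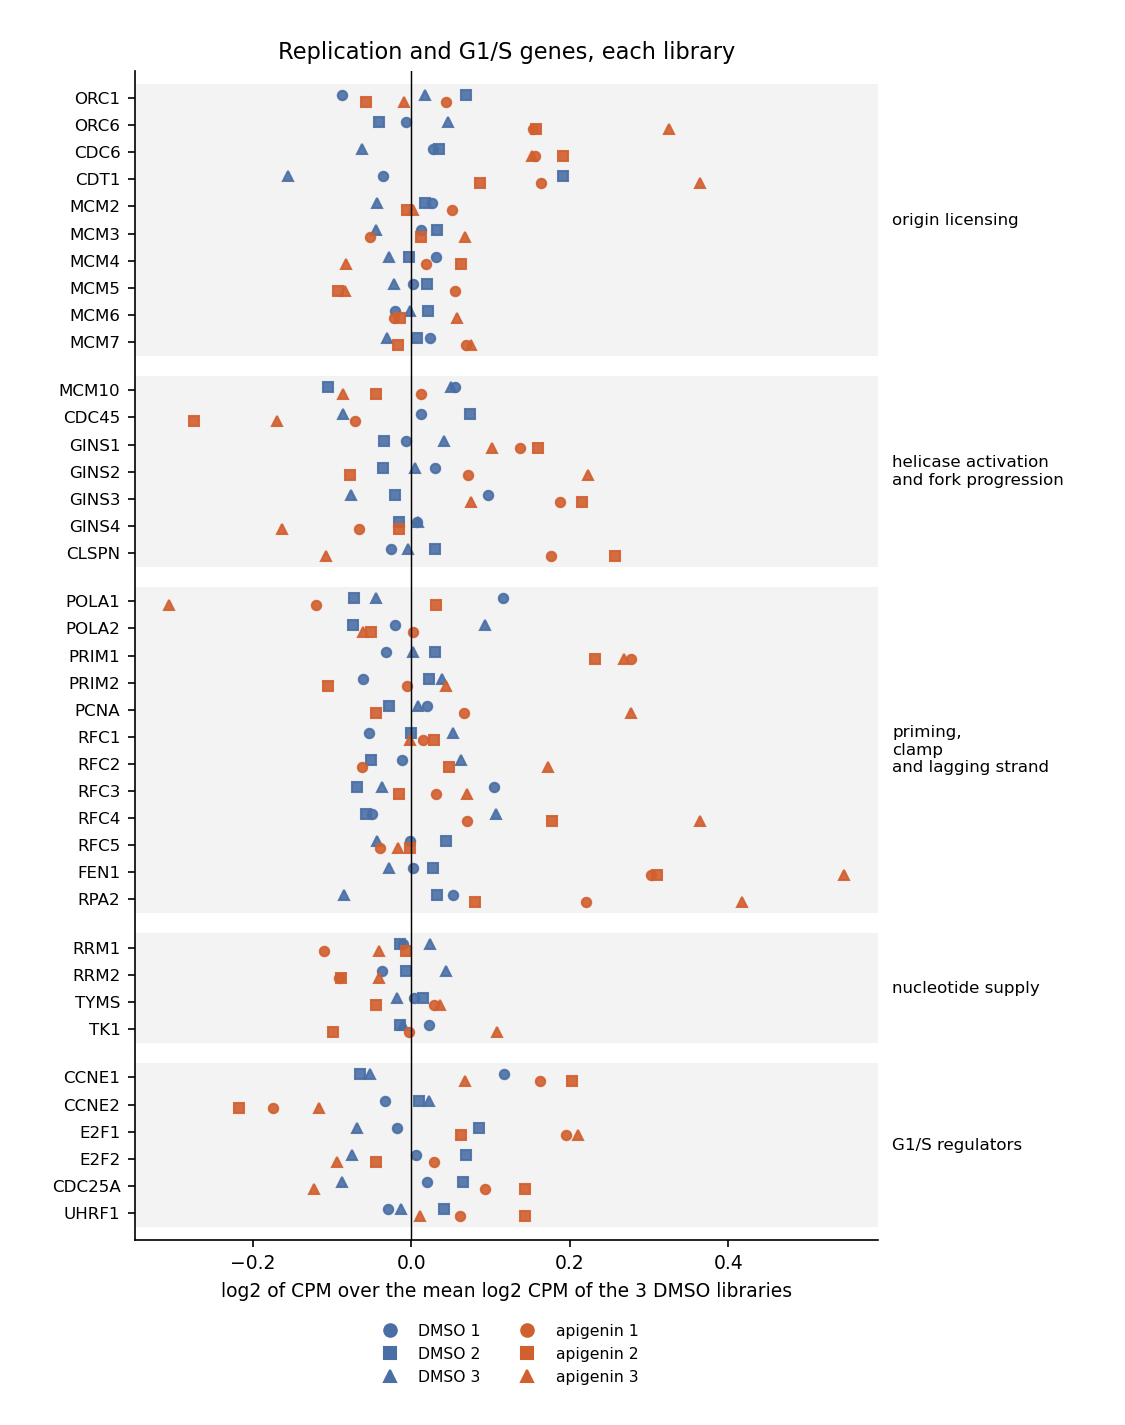
Each point is 1 library of 1 gene, as log2 CPM minus the mean log2 CPM of the 3 DMSO libraries (horizontal axis), with genes in rows by role; DMSO libraries are blue and apigenin libraries orange. FEN1 is the gene whose apigenin points lie farthest from its DMSO points, and in 31 of the 39 genes the points of the groups overlap.

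All 3 apigenin libraries lay above all 3 DMSO libraries in CPM for 6 genes, ORC6, CDC6, GINS1, PRIM1, FEN1 and RPA2. That is 15.4% of the set, beside 14.4% of all tested genes separated in this way. They lay below for 2 genes, RRM2 and CCNE2, which is 5.13% of the set beside 15% of all tested genes. In both directions together they were 20.5% of the set, beside 29.4% of all tested genes. The share of separated genes was thus close to that of all genes in the upward direction and lower than it in the downward direction, a difference that was not tested. Gene length differs between the set and all genes. The longest quintile of tested genes held 931 of the 2272 genes separated downward and 4 of the 39. The shortest quintile held 661 of the 2182 separated upward and 9 of the 39.

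FEN1 (chromosome 11, 61792911 to 61797238, 2016 nucleotides of counted length, overlapping no other RefSeq gene) encodes the structure-specific nuclease that removes RNA primer flaps on the lagging strand and also acts in base excision repair. It stood at 123, 125 and 121 CPM in the DMSO libraries and at 152, 152 and 179 CPM in the apigenin libraries. The groups did not overlap, and apigenin library 3 was the highest. The mean rose from 123 ± 2.34 to 161 ± 15.9 CPM (SD, n = 3 per group), a log2 fold change of 0.39 ± 0.0691 or 1.31-fold (95% interval 1.18 to 1.45, edgeR adjusted p = 0.00464). Once the length trend was removed the log2 fold change was 0.30 (edgeR adjusted p = 3.92e-04). Of 24 other settings 23 kept the call, and the exception was limma on log2(FPKM + 1) with no filter (0.38, limma adjusted p = 0.0817). The adjusted p over those settings ran from 5.10e-07 to 0.0817. Without apigenin library 3 FEN1 was still called, with a log2 fold change of 0.31 (edgeR adjusted p = 9.30e-05). Its promoter is shown because FEN1 is the gene that was called, and because its RefSeq window (250 bases before to 50 after the start, GRCh38.p14) holds none of the E2F letters searched below, no CCAAT, no GC box (GGGCGG) and no CHR letters (TTTGAA), and 1 copy of GCGTG. The 150 bases before the start read, 5′ to 3′ on the gene's strand:
FEN1, chr11:61792761-61792910, plus strand: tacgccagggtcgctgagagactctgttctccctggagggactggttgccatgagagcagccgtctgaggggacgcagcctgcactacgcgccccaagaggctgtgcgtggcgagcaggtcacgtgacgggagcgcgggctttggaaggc

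**Figure D2:**
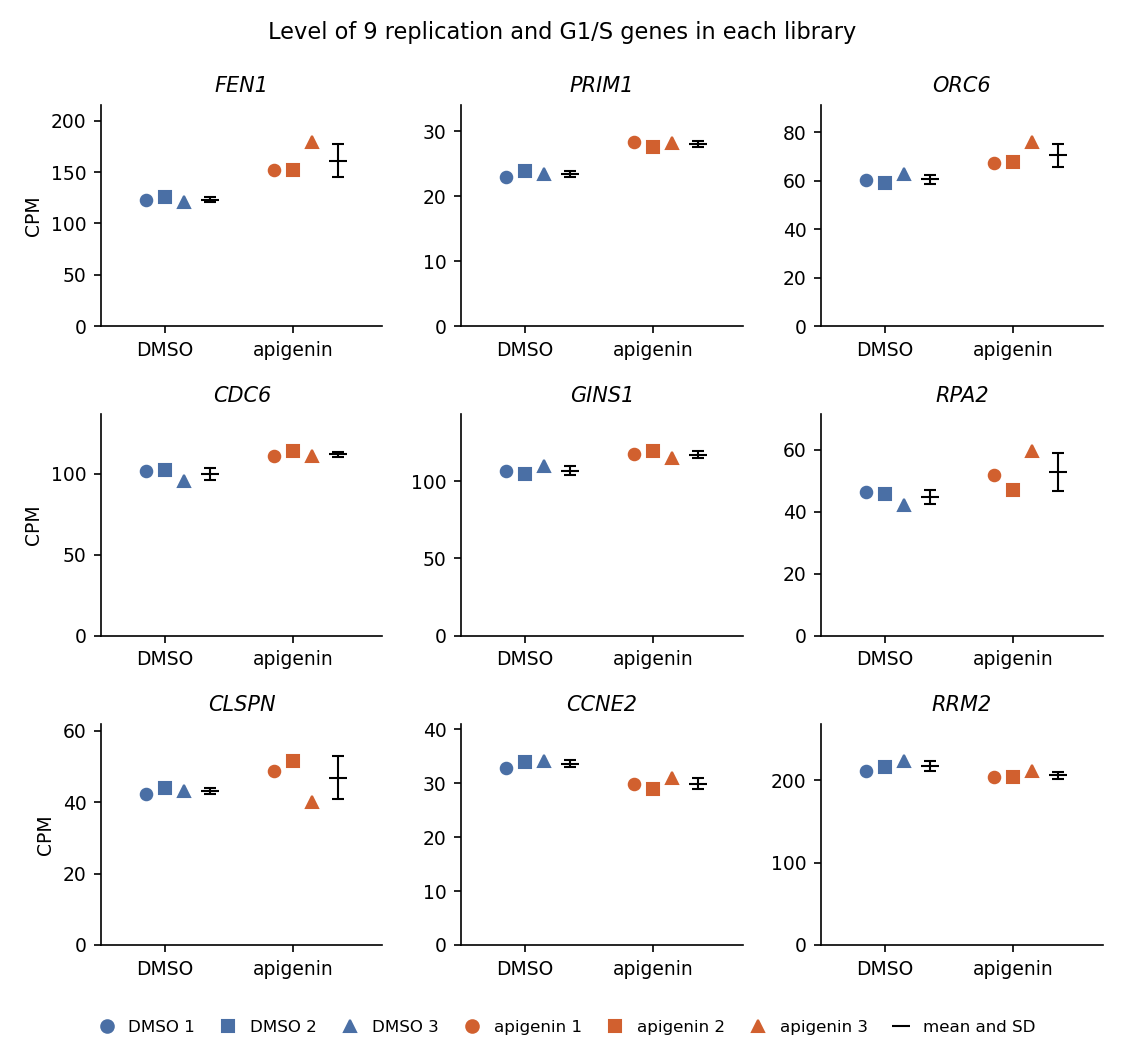
CPM (vertical axes, from 0) of 9 genes in each DMSO (blue) and apigenin (orange) library, with the mean and SD of 3 libraries beside the points. FEN1 goes from about 123 to 161 CPM, CLSPN overlaps between the groups with apigenin library 3 under the DMSO libraries, and CCNE2 and RRM2 lie lower with apigenin without being called.

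Among the 10 origin licensing genes none was called in either direction, 8 fold changes were positive and 2 negative, and the median log2 fold change was 0.013. The 6 subunits of the MCM2 to MCM7 ring, the core of the replicative helicase, stayed within narrow bounds. Their log2 fold changes ran from -0.038 for MCM5 to 0.043 for MCM7, and the 95% intervals of their folds lay between 0.889 and 1.11. MCM7 stood at 512, 507 and 493 CPM in the DMSO libraries and 529, 498 and 531 CPM in the apigenin libraries. MCM4 stood at 348, 339 and 334 CPM and at 345, 355 and 321 CPM. In both genes the groups overlapped. MCM7 hosts 3 microRNA genes and overlaps AP4M1.

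ORC6 (chromosome 16, 46689659 to 46698394), the smallest subunit of the origin recognition complex, was at 60.4, 59.0 and 62.6 CPM in the DMSO libraries and 67.5, 67.7 and 76.0 CPM in the apigenin libraries. The groups were separate, with a log2 fold change of 0.22 ± 0.0689, yet the gene was not called (edgeR adjusted p = 0.075). It was called by DESeq2 (adjusted p = 0.0472), with no filter (edgeR adjusted p = 0.0473) and without apigenin library 2 (edgeR adjusted p = 0.0251), and its log2 fold change was 0.11 with the length trend removed (edgeR adjusted p = 0.256). ORC1, the large ATPase subunit of the same complex and the lowest licensing gene by FPKM, was at 32.96, 36.7 and 35.4 CPM in the DMSO libraries and 36.1, 33.6 and 34.8 CPM in the apigenin libraries, which overlapped fully. CDC6 (chromosome 17, 40287879 to 40304657), the ATPase that loads the helicase together with CDT1, was at 102, 102 and 95.6 CPM in the DMSO libraries and 111, 114 and 111 CPM in the apigenin libraries. The 3 apigenin libraries lay above every DMSO library, with a log2 fold change of 0.17 ± 0.0582 that was not called (edgeR adjusted p = 0.0976). With the length trend removed CDC6 was called (0.18 ± 0.0489, edgeR adjusted p = 0.0206), and over the other settings its adjusted p ran from 0.0173 to 0.356. CDT1, its partner, was at 37.6 to 47.8 CPM in the DMSO libraries and 44.5 to 53.9 CPM in the apigenin libraries. Those ranges overlapped and CDT1 was not called (log2 fold change 0.20 ± 0.0961, edgeR adjusted p = 0.217).

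Promoter windows were searched for short motifs. The genes were chosen by symbol and not by sequence, but many are known E2F targets, so their share with E2F letters is not independent of the choice. The E2F letters searched were TTTCGCGC, TTTGGCGC, TTTCCCGC and TTTGCCGC on both strands. Windows were found for 34 of the 39 genes (44 windows), and none was found for MCM4, MCM5, GINS4, RPA2 and CCNE2. Of the 34 genes 19 held the letters in a window, or 55.9%, against 6.43% of tested genes that have a window. The share was 33.3% of 39 further replication genes, 22.2% of 18 genes of the E2F family, pocket proteins and DREAM complex and 12.5% of 24 G2 and mitosis genes, each counted over genes with a window. By windows the share was 45.5%, against 3.31% of all 35116 windows in the table and 4.76% of those of tested genes. The stretches of MCM6 and MCM3 are shown as licensing genes with such letters, 5′ to 3′ on the gene's strand with the matches in capitals:
MCM6, chr2:135876514-135876603, minus strand: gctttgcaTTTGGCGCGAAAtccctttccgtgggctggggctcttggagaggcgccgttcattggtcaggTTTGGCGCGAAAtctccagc
MCM3, chr6:52284843-52284932, minus strand: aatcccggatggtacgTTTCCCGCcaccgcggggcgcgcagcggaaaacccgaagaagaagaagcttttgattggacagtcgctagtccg
In MCM6 the 12 capitals TTTGGCGCGAAA occur in 2 places and each holds a match on either strand, which overlap by 4 bases, so the window counts 4 matches. The 90 bases shown of MCM3 begin at position -190 from its start, and a second match of its window begins at position -4.

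**Figure D3:**
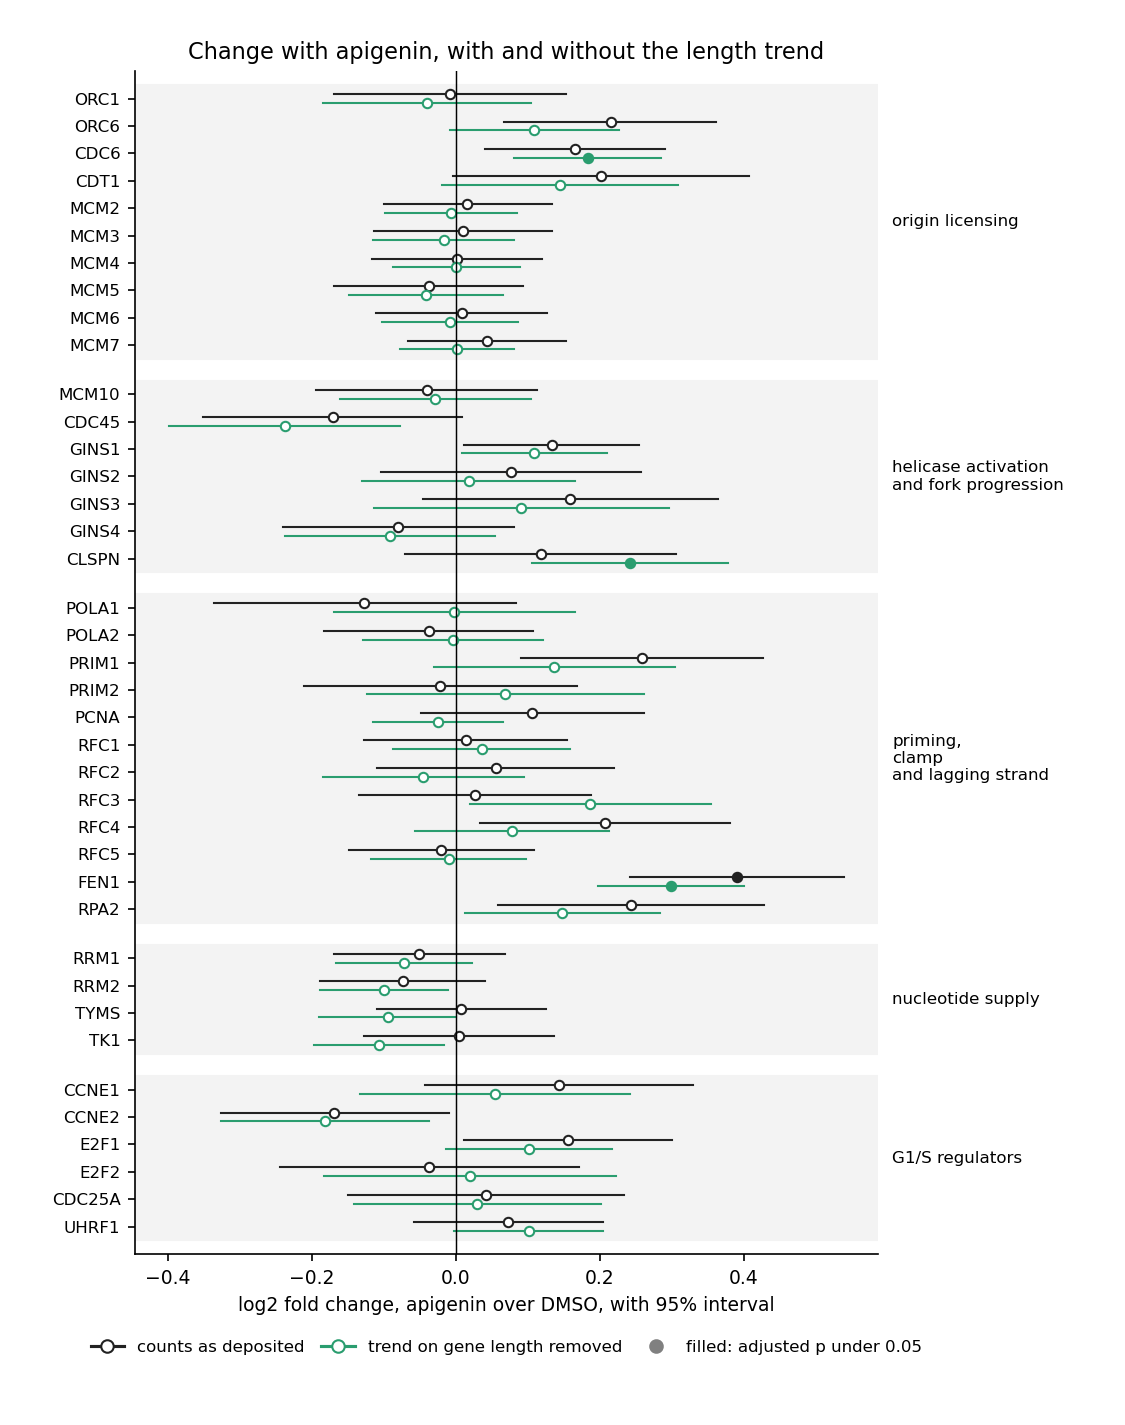
Log2 fold change, apigenin over DMSO, with its 95% interval (horizontal axis) for each gene by role, from the counts as deposited (black) and with the trend on gene length removed (green); filled points have an adjusted p under 0.05. FEN1 is filled in both fits, CDC6 and CLSPN only with the trend removed, and the intervals of MCM2 to MCM7 lie between 0.889-fold and 1.11-fold in the black fit.

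Of the 7 genes of helicase activation and fork progression none was called, with 4 positive and 3 negative fold changes and a median of 0.077. GINS1 (chromosome 20, 25407673 to 25448563), a subunit of the GINS complex and the highest of the group by FPKM, was at 106, 104 and 110 CPM in the DMSO libraries and 118, 119 and 115 CPM in the apigenin libraries. These did not overlap (log2 fold change 0.13 ± 0.0569, edgeR adjusted p = 0.167). The other GINS subunits overlapped between the groups, with log2 fold changes of 0.077 for GINS2, 0.159 for GINS3 and -0.080 for GINS4. CLSPN (chromosome 1, 35720213 to 35769978), the mediator of the replication checkpoint and the lowest of the group by FPKM, was at 42.4, 44.1 and 43.0 CPM in the DMSO libraries and 48.8, 51.6 and 40.1 CPM in the apigenin libraries. Apigenin libraries 1 and 2 lay above the DMSO range and apigenin library 3 below it. CLSPN was not called (log2 fold change 0.12 ± 0.0879, edgeR adjusted p = 0.448). It was called with the length trend removed (0.24 ± 0.0651, edgeR adjusted p = 0.0218) and without apigenin library 3 (edgeR adjusted p = 0.0458). CLSPN is long, with 9280 nucleotides counted, and apigenin library 3 had the steepest length slope. CDC45, which joins the helicase at the start of S phase, was at 31.0, 32.4 and 29.0 CPM in the DMSO libraries and 29.3, 25.4 and 27.4 CPM in the apigenin libraries. This was the most negative fold change of the set, with overlapping groups (-0.17 ± 0.0841, edgeR adjusted p = 0.231), and it was -0.24 with the length trend removed (edgeR adjusted p = 0.0564). MCM10, a scaffold of the starting fork, had a log2 fold change of -0.040.

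Among the 12 genes of priming, clamp and lagging strand, FEN1 was called higher and 11 were not called, with 8 positive and 4 negative fold changes and a median of 0.041. PRIM1 (chromosome 12, 56731580 to 56752323), the catalytic primase subunit, came nearest to the threshold among uncalled genes. It was at 22.9, 23.9 and 23.45 CPM in the DMSO libraries and 28.4, 27.5 and 28.2 CPM in the apigenin libraries. The groups stood well apart, and the log2 fold change was 0.26 ± 0.0784 (edgeR adjusted p = 0.0625). It was called in all 3 limma fits on FPKM and without apigenin library 2, and with the length trend removed its log2 fold change was 0.14 (edgeR adjusted p = 0.330). PRIM2, the other primase subunit, was at 20.5, 21.7 and 21.9 CPM in the DMSO libraries and 21.3, 19.9 and 22.0 CPM in the apigenin libraries, a log2 fold change of -0.022. The FPKM ratio of PRIM1 to PRIM2 was 5.49 ± 0.127 in the DMSO libraries and 6.68 ± 0.264 in the apigenin libraries (SD, n = 3), with no overlap. These ratios carry the length trend, since 1423 nt were counted for PRIM1 and 7129 nt for PRIM2. With the trend removed the log2 fold change of PRIM2 was 0.068, beside 0.14 for PRIM1. PRIM2 overlaps RAB23, so its reads are less certain.

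RPA2 (chromosome 1, 27891524 to 27914797), a subunit of the single-strand binding protein RPA, was at 46.2, 45.6 and 42.0 CPM in the DMSO libraries and 52.0, 47.1 and 59.5 CPM in the apigenin libraries. The lowest apigenin library lay just above the highest DMSO library, and RPA2 was not called (0.24 ± 0.0861, edgeR adjusted p = 0.0997). It was called with no filter (edgeR adjusted p = 0.0307) and without apigenin library 2 (edgeR adjusted p = 0.0105). PCNA, the sliding clamp, stood with MCM7 at the top of the set by FPKM. It was at 232, 225 and 231 CPM in the DMSO libraries and 240, 222 and 278 CPM in the apigenin libraries. Apigenin library 3 stood above the rest and apigenin library 2 below the DMSO range, with a log2 fold change of 0.11 ± 0.0724 (edgeR adjusted p = 0.399) that was -0.025 once the length trend was removed. POLA1, the catalytic subunit of DNA polymerase alpha, was at 30.2, 26.5 and 27.1 CPM in the DMSO libraries and 25.7, 28.5 and 22.6 CPM in the apigenin libraries. The groups overlapped, and the log2 fold change was -0.13 ± 0.0975 (edgeR adjusted p = 0.461), or -0.002 with the length trend removed. Its partner subunit POLA2 had a log2 fold change of -0.038. The clamp loader genes RFC1 to RFC5 had log2 fold changes from -0.020 for RFC5 to 0.207 for RFC4, and all 5 overlapped between the groups. RFC3 was called only with the length trend removed and without apigenin library 2 (0.27, edgeR adjusted p = 0.0297). Promoter stretches of POLA2 and PCNA are shown as fork genes with E2F letters (capitals), one in forward and one in reverse orientation, over the 80 bases before the start:
POLA2, chr11:65261882-65261961, plus strand: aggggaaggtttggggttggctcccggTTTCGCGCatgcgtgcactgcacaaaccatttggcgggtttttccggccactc
PCNA, chr20:5126623-5126702, minus strand: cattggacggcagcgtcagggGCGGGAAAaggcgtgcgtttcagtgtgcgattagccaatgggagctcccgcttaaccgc

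None of the 4 nucleotide supply genes was called, and their median log2 fold change was -0.024. RRM2 (chromosome 2, 10122568 to 10211010), the small subunit of ribonucleotide reductase that makes deoxynucleotides, was at 212, 216 and 224 CPM in the DMSO libraries and 204, 204 and 211 CPM in the apigenin libraries. Every apigenin library lay below every DMSO library, by a small margin (log2 fold change -0.074 ± 0.0536, edgeR adjusted p = 0.431). RRM1, the large subunit and the lowest of the 4 by FPKM, was at 163, 162 and 167 CPM in the DMSO libraries and 152, 163 and 160 CPM in the apigenin libraries (-0.051 ± 0.0554, edgeR adjusted p = 0.623). The FPKM ratio of RRM2 to RRM1 was 1.38 ± 0.0231 in the DMSO libraries and 1.36 ± 0.0506 in the apigenin libraries, which overlapped. TK1, the thymidine kinase of the salvage pathway and the highest of the 4, was at 169, 165 and 165 CPM in the DMSO libraries and 166, 155 and 179 CPM in the apigenin libraries. Its log2 fold change was 0.004 ± 0.0617, with an interval from 0.915-fold to 1.099-fold. TYMS, which makes thymidylate, had a log2 fold change of 0.007 ± 0.0548 and overlaps ENOSF1. With the length trend removed all 4 log2 fold changes were negative, with a median of -0.098, and none was called.

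Of the 6 G1/S regulators none was called, with 4 positive and 2 negative fold changes and a median of 0.057. CCNE1 and CCNE2 encode the E-type cyclins that activate CDK2. CCNE2 was at 32.9, 33.8 and 34.1 CPM in the DMSO libraries and 29.8, 28.9 and 31.0 CPM in the apigenin libraries. The apigenin libraries were all lower, without a call (-0.17 ± 0.0737, edgeR adjusted p = 0.177), and the gene overlaps INTS8 and NDUFAF6. CCNE1 was at 25.8, 22.7 and 22.9 CPM in the DMSO libraries and 26.6, 27.4 and 24.9 CPM in the apigenin libraries, which overlapped (0.14 ± 0.087, edgeR adjusted p = 0.339). The FPKM ratio of CCNE1 to CCNE2 was 1.39 ± 0.128 in the DMSO libraries and 1.73 ± 0.141 in the apigenin libraries, with no overlap, from 1.54 as the highest DMSO value to 1.57 as the lowest apigenin value. This ratio also carries the length trend, with 1954 nt counted for CCNE1 and 3822 nt for CCNE2. With the trend removed the log2 fold changes were 0.055 for CCNE1 and -0.18 for CCNE2. Among other pairs computed, the ratios of GINS1 to GINS4, E2F1 to E2F2 and ORC6 to ORC1 also did not overlap. Those of MCM7 and MCM4 to MCM5, PCNA to RFC1, CDT1 to CDC6 and POLA2 to POLA1 overlapped. Counted lengths were 2690 nt for E2F1 and 5970 for E2F2, 1764 for ORC6 and 3263 for ORC1, and 3486 for GINS1 and 3826 for GINS4. With the trend removed the log2 fold changes were 0.102 and 0.02, 0.109 and -0.04, and 0.109 and -0.092 in the same order. The pairs were chosen from within the set, and the share of ratios without overlap over other gene pairs was not computed. None of the FPKM ratios given here was tested.

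E2F1 (chromosome 20, 33675477 to 33686385), the activating factor that drives S phase genes and the highest regulator by FPKM, was at 74.7, 80.2 and 72.1 CPM in the DMSO libraries and 86.6, 79.0 and 87.5 CPM in the apigenin libraries. Apigenin libraries 1 and 3 lay above the DMSO range and apigenin library 2 inside it. E2F1 was not called (0.16 ± 0.0677, edgeR adjusted p = 0.174), and was called without apigenin library 2 (0.20, edgeR adjusted p = 0.0418). E2F2, its close relative and the lowest gene of the whole set by FPKM, was at 16.6, 17.4 and 15.7 CPM in the DMSO libraries and 16.9, 16.1 and 15.5 CPM in the apigenin libraries, a log2 fold change of -0.037. CDC25A, the phosphatase that activates CDK2, had a log2 fold change of 0.042, and UHRF1, which couples DNA methylation to replication, one of 0.073. The E2F1 promoter is shown because the factor's own gene carries the letters its family is known to bind, with 2 matches (capitals) in the 80 bases before the start:
E2F1, chr20:33686386-33686465, minus strand: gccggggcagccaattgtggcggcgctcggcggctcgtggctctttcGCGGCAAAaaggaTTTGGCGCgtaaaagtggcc

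By FPKM the 39 genes spanned 62.0-fold, from a mean of 2.74 for E2F2 to 170 for PCNA and for MCM7 over the 6 libraries. The median gene of the set stood at percentile 79.4 of the tested genes, and 35 of the 39 lay above the median tested gene. Within the MCM ring, whose subunits occur once each in the complex, DMSO levels ran from MCM7 at 167 ± 3.59 FPKM through MCM4 at 81.4 ± 1.78, MCM2 at 49.1 ± 1.36, MCM3 at 40.5 ± 1.23 and MCM6 at 38.4 ± 0.619 to MCM5 at 27.1 ± 0.472 (SD, n = 3). MCM3 and MCM6 were neighbours in that order whose ranges of 39.1 to 41.5 and 37.8 to 39.04 FPKM nearly met, while the other steps were larger than the spread. With apigenin the order of the 6 subunits was the same, from 172 ± 4.73 FPKM for MCM7 to 26.35 ± 1.58 for MCM5. PCNA stood at 164 ± 2.54 FPKM with DMSO and 176 ± 18.4 with apigenin, beside its lowest loader subunit RFC3 at 3.32 ± 0.215 and 3.38 ± 0.0672. The primase and polymerase alpha genes were also uneven by FPKM, with PRIM1 at 16.5 ± 0.384, POLA2 at 11.7 ± 0.663, POLA1 at 3.02 ± 0.215 and PRIM2 at 2.997 ± 0.109 FPKM in the DMSO libraries. POLA1 and PRIM2 did not differ beyond their spread in FPKM. The counted lengths differ, with 1399 nt for PCNA, 11245 for RFC3, 1423 for PRIM1, 5216 for POLA2, 9263 for POLA1 and 7129 for PRIM2. Before division by length, the DMSO means were 23.4 CPM for PRIM1, 21.4 for PRIM2, 27.95 for POLA1 and 60.9 for POLA2. Those of PCNA and RFC3 were 229 and 37.4 CPM. The part of counted length in these steps between genes was not tested.

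**Figure D4:**
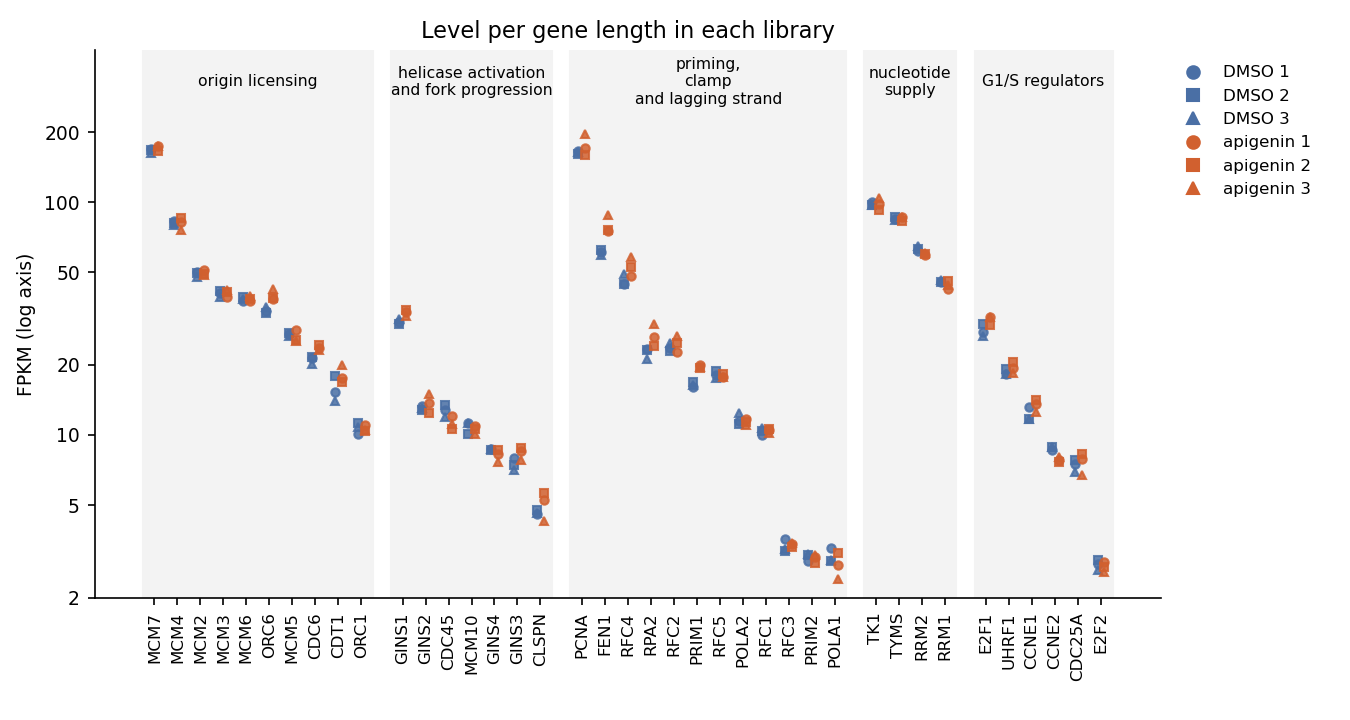
FPKM (vertical log axis) of each gene in each library, ordered by level within a role; DMSO libraries are blue and apigenin libraries orange. PCNA and MCM7 lie highest, near 170 FPKM, E2F2 lies lowest with a mean of 2.74 FPKM, and the order of levels differs little between the groups.

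Fold changes within the set were lower in longer genes. Spearman's rho of log2 fold change with length was -0.479 over the 39 genes and -0.358 over all tested genes, and it was 0.099 and 0.017 after the length trend was removed. These are descriptions across genes that share the same 6 libraries. The shortest quintile of tested genes (at most 1987 nucleotides) held 9 of the set, ORC6, PRIM1, PCNA, RFC2, RFC4, RPA2, TYMS, TK1 and CCNE1. Their median log2 fold change was 0.143, beside 0.137 for all tested genes of that quintile, and it was 0.055 with the trend removed. The longest quintile (at least 7092 nucleotides) held CLSPN, POLA1, PRIM2 and RFC3, with a median of 0.003 beside -0.134 for all genes of that quintile, or 0.128 with the trend removed. With the trend removed over all genes, 3 of the 39 genes were called higher, CDC6, CLSPN and FEN1, and 0 lower. Called genes were then 7.69% of the set, beside 10% of all tested genes, 4.63% called higher and 5.38% called lower. Without apigenin library 2, whose slope was the flattest of the apigenin libraries, 5 genes were called higher (ORC6, PRIM1, FEN1, RPA2 and E2F1), beside 18.6% of all tested genes called in either direction and 8.66% called higher. Of those 5, ORC6, PRIM1 and RPA2 belong to the shortest quintile. The share called lower was then 9.97% of all tested genes and 0 of the set. With the length trend removed as well, CDC6, RFC3 and FEN1 were called higher and 0 lower, beside 6.32% and 6.36% of all tested genes.

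The other settings named above gave backgrounds of their own. DESeq2 called ORC6 and FEN1 higher and 0 lower, beside 5.34% and 7.37% of all genes it tested, or 12.7% in either direction. Without a filter ORC6, FEN1 and RPA2 were called higher, beside 3.75% of genes. Without apigenin library 3 CDC6, CLSPN and FEN1 were called higher, beside 3.69% of genes on the counts as deposited and 4.18% with the length trend removed. On FPKM limma called PRIM1 and FEN1 higher, beside 2.8% of genes with a pseudocount of 1 and 2.67% with 0.1, and without a filter PRIM1 alone, beside 0.338%.

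**Figure D5:**
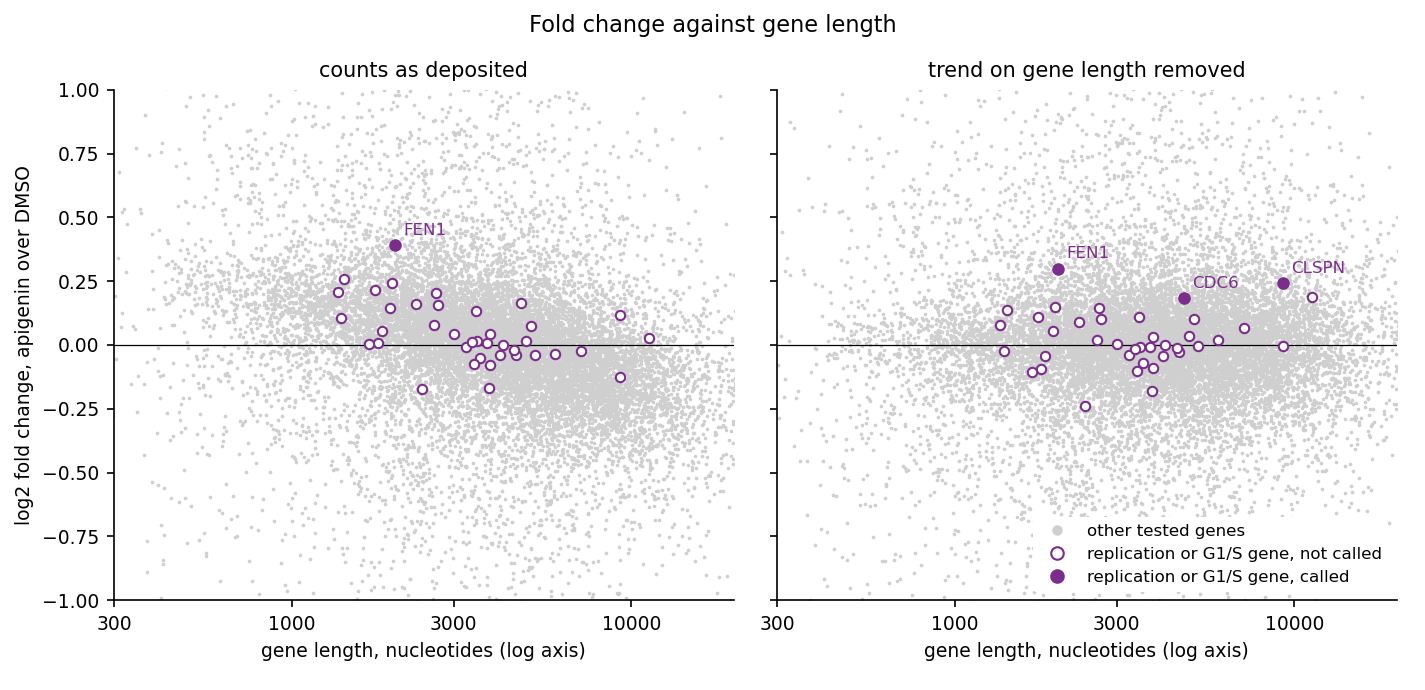
Log2 fold change, apigenin over DMSO (vertical axis), against the gene length recovered from the deposited FPKM (horizontal log axis, nucleotides), before (left) and after (right) the length trend was removed; grey points are tested genes, circles the 39 genes, filled where called, and genes outside the axes are not drawn. On the left the grey cloud and the circles slope down with length (rho -0.358 and -0.479), and on the right they do not.

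Fold changes of genes with and without the E2F letters covered overlapping ranges. The 19 genes with them had a median log2 fold change of 0.043 (-0.127 to 0.202), and the 15 genes without them one of 0.004 (-0.171 to 0.39). Of the other letters searched, CCAAT lay in a window of 22 of 34 genes, or 64.7%, beside 42.5% of tested genes and 79.2% of G2 and mitosis genes with a window. The CHR letters TTTGAA, known from genes that peak in mitosis, lay in 1 of 34 genes, or 2.94%, beside 13.9% of tested genes and 17 of 24 G2 and mitosis genes with a window, or 70.8%. GCGTG, the core letters of the aryl hydrocarbon response element, lay in 19 of 34 genes, or 55.9%, beside 56.3% of tested genes. The GC box letters GGGCGG lay in 24 of 34 genes, or 70.6%, beside 72.9% of tested genes. These are matches of letters on both strands in the window and not measured binding.

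Of 49 further replication genes 48 were listed and tested, and 2 were called higher, 2 lower and 44 not, beside 2.76% called higher and 4.22% called lower over all tested genes. Their median log2 fold change was 0.004, the same as over all tested genes. POLE, the catalytic subunit of the leading-strand polymerase, fell from 145, 149 and 152 CPM to 123, 126 and 106 CPM (-0.33 ± 0.0689, edgeR adjusted p = 0.013). TOPBP1, which helps to fire origins, fell from 165, 166 and 168 CPM to 136, 155 and 128 CPM (-0.25 ± 0.0692, edgeR adjusted p = 0.0431). In both genes the groups were separate. With the length trend removed the log2 fold change was -0.21 for POLE and -0.20 for TOPBP1. ASF1A, a histone chaperone whose gene overlaps MCM9, rose from 57.3 to 59.1 CPM to 67.9 to 75.9 CPM (0.29 ± 0.0664, edgeR adjusted p = 0.0215). SLBP, which binds the stem-loop of histone mRNA, rose from 74.6 to 77.4 CPM to 85.9 to 92.2 CPM (0.23 ± 0.0606, edgeR adjusted p = 0.0349) but lost its call once the length trend was removed (0.13, edgeR adjusted p = 0.118). In that fit ORC5, CHAF1A and ASF1A were called higher, and TOPBP1, POLE and LIG1 were among those called lower; those not named before are given here after their values were seen.

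Among 21 genes of the E2F family, pocket proteins and the DREAM repressor complex, edgeR called none, with 4 at an unadjusted p under 0.05, and DESeq2 called 1, E2F4. The largest fold changes were 0.24 for E2F4 (edgeR adjusted p = 0.0508), a repressor E2F, and 0.22 for LIN37 (edgeR adjusted p = 0.297) upward. Downward they were -0.41 for RB1 (edgeR adjusted p = 0.0754), the pocket protein that restrains E2F1, and -0.27 for LIN54 (edgeR adjusted p = 0.141). RB1 was at 8.93, 8.35 and 8.80 CPM in the DMSO libraries and 5.84, 7.28 and 6.46 CPM in the apigenin libraries, which did not overlap. With the length trend removed 1 gene of the list was called, MYBL2, which was lower and is named after its value was seen (-0.19, edgeR adjusted p = 0.00954). Of 30 G2 and mitosis genes 1 was called higher and 3 lower, beside 2.76% and 4.22% of all tested genes, and their median log2 fold change was 0.025. The phosphatase gene CDC25B rose (0.23 ± 0.0511, edgeR adjusted p = 0.0198). The proliferation marker MKI67 (-0.36 ± 0.0896, edgeR adjusted p = 0.0313), the kinetochore gene CENPF (-0.26 ± 0.072, edgeR adjusted p = 0.0433) and the mitotic factor FOXM1 (-0.18 ± 0.0505, edgeR adjusted p = 0.0442) fell, CENPF not with the length trend removed (edgeR adjusted p = 0.0815). NUSAP1 (-0.16, edgeR adjusted p = 0.0283) and ANLN (-0.158, edgeR adjusted p = 0.0447) were called lower only with that trend removed, and are named after their values were seen. MKI67 is long, with 13228 nt counted, and its log2 fold change was -0.19 with the length trend removed (edgeR adjusted p = 0.0151). Over the other settings it ran from -0.464 to -0.13. Relative to the DMSO mean, log2 CPM of MKI67 was -0.309, -0.162 and -0.636 in apigenin libraries 1, 2 and 3. On the counts as deposited, edgeR called 1.67% to 2.05% of all tested genes when DMSO library 1, 2 or 3 or apigenin library 1 was left out. None of the 8 genes of the further lists called above with all libraries on those counts was called in those 4 fits. FEN1 was called in each of them. With the length trend removed as well, CDC25B and FOXM1 were also called in each of the 4. Over all 24 other settings the log2 fold change lay between 0.192 and 0.242 for CDC25B and between -0.207 and -0.175 for FOXM1.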

How the data were processed

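Per the labels' protocols, TRIzol was used to extract RNA from 3 DMSO and 3 apigenin samples of HCC-LM3 cells, and the VAHTS Universal V6 kit to prepare the sequencing libraries. fastp, HISAT2, HTSeq and the GRCh38 (hg38) build are named in the submitters' processing notes, without versions. Use of strand in counting is not given in the sources used here. Raw read counts per gene symbol and FPKM values were deposited by the authors, in 1 table of each kind per sample. The deposited FPKM equal count over gene length and library total for 100% of values (relative tolerance 1e-04), which gave each gene's length.

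Groups come from the sample titles. The groups were compared with edgeR 4.0.16 (R 4.3.3; quasi-likelihood test, TMM factors, default filter on low counts, 15173 genes tested), with Benjamini-Hochberg adjustment over all tested genes at 0.05. P-values set the difference between the groups against a spread within groups of 3 libraries, all from 1 line. That spread is not the gene's own alone, since edgeR moderates it with a trend shared over all tested genes. CPM are TMM-scaled. The trend on length is a lowess curve (span 0.3) of each library's log2 CPM difference on log2 gene length, used as an offset. Promoter windows, gene positions and overlaps come from RefSeq (GRCh38.p14). Every one of the 39 genes is accounted for by role. Library values are given for genes called in either of these fits, for genes whose groups do not overlap and for the highest and lowest by FPKM in each role. Of the other lists, called genes are named, and where none is called the largest fold changes in each direction. The genes, lists and tests were chosen with earlier results of these data known. Other settings were DESeq2 1.42.0, limma 3.58.1 on log2(FPKM + 1) and log2(FPKM + 0.1), other scaling factors and filters, the replicate number as a block, the length trend removed, and each library left out. Some results of the wider gene lists are not reported here. The steps were tested on simulated data. A count of 0 allows up to 0.079 to 0.0885 CPM (3 counts), which covers counting error only.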

Additional observations from a re-analysis of the deposited data

How the results depend on the processing

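The number of the 39 genes called higher was 1, and it was 2 with DESeq2, 3 with no filter, 2 with limma on log2(FPKM + 1) and on log2(FPKM + 0.1), 3 with the length trend removed, 3 with that trend removed and the replicate block, and 1 to 5 with one library left out. The number called lower was 0 in every setting but the trend removed with the replicate block, which gave 1 (CDC45). Libraries of the 2 groups with the same replicate number share only that number. Their deviations from the group means correlated at -0.002, -0.042 and -0.048, no DMSO library correlated best with its own number, and the replicate block left the calls at 1 higher and 0 lower among the 39 genes, with 455 higher and 776 lower among all genes.

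For the further replication genes, 2 called higher became 4 with DESeq2, 6 with no filter, 1 with the replicate block, 3 with the strict filter of 1 CPM in 3 libraries, 3 with the trend removed with or without the block, and 0 with limma on log2(FPKM + 1) without a filter, and 0 to 7 with a library left out. The 2 called lower became 4 with DESeq2, 4 with the strict filter, 4 with the trend removed with or without the block, 1 with library totals only, 1 with either filtered limma fit, 0 with unfiltered limma, 3 with no filter and 0 to 6 with a library left out. For the E2F and DREAM genes, 0 called higher became 1 with DESeq2, upper-quartile factors, no filter or the strict filter, and 0 to 1 with a library left out, and 0 called lower became 1 with no filter or with the trend removed, with or without the block, and 0 to 3. For the G2 and mitosis genes, 1 called higher became 0 to 4 with a library left out, and 3 called lower became 6 with no filter, 2 with library totals, upper-quartile factors or the replicate block, 1 with either filtered limma fit, 0 with unfiltered limma, 4 with the trend removed, 5 with the block added to that, and 0 to 6.

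Over all genes, 419 called higher and 641 lower became 658 and 909 with DESeq2, 865 and 1096 with no filter, 352 and 303 with limma on log2(FPKM + 1), 336 and 289 on log2(FPKM + 0.1), 78 and 60 with unfiltered limma, 702 and 816 with the trend removed, 828 and 908 with the block added to that, and 103 to 1344 and 157 to 1546 with one library left out. With the trend removed and a library left out, the highest were 980 and 986 (apigenin 2), 651 were called higher without apigenin 3, and 371 and 399 were called lower without DMSO 1 and 3. Higher calls were 39.5% of all calls, and 53.7 to 56.5% with limma. The causes were not tested. No log2 fold change of the 39 genes exceeded 0.5 in size in any setting. With 3 libraries a group, small changes could be missed. The 95% intervals are not adjusted for the number of genes, and those of 9 of the 39 genes lay wholly above or below 1-fold, while 1 gene was called.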
